A study of Mus musculus with 5 samples.

Results

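The transcripts of 10 survival genes were followed in brain microglia with and without full loss of A20: Bcl2a1a, Bcl2a1b and Bcl2a1d, Mcl1, Bcl2l1 and Bcl2 of the BCL2 family, Birc2, Birc3 and Xiap of the inhibitor of apoptosis (IAP) family, and Cflar. They were taken by name, as BCL2 and IAP survival proteins and Cflar, with no threshold on a measured value. All 10 were found among the 41388 genes of the count table, and all 10 passed the filter on low counts. The 3 libraries of the A20 deletion group carry the genotype label eYFP-A20Dmg, whose single alleles are not spelled out, and the labels call these microglia fully deficient. The 2 control libraries carry eYFP-A20fl/wt Cx3cr1-CreERT2/+, with 1 floxed and 1 wild-type A20 allele, and are called partially deficient, so they are not A20-intact cells. All mice were of C57Bl/6 background, 4 weeks old and given 2 mg of tamoxifen, the drug that activates CreERT2, at postnatal days 14 and 16. After papain digestion the eYFP-positive cells were sorted. Cx3cr1, which drives this Cre, is also active in macrophages at the borders of the brain. Whether each library is a different animal is not stated, and the p-values therefore reflect the spread of these libraries alone, part of which may be technical.

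A20, encoded by Tnfaip3, removes and edits ubiquitin chains that carry the NF-kB signal, and thereby limits that pathway. NF-kB dimers in turn switch on genes that keep a signalled cell alive. The BCL2-type proteins A1 (Bcl2a1), MCL-1, BCL-XL (Bcl2l1) and BCL2 hold the mitochondrial pore formers Bax and Bak1 in check. cIAP1 (Birc2) and cIAP2 (Birc3) are ubiquitin ligases at the TNF receptor, XIAP blocks caspases directly, and cFLIP (Cflar) keeps caspase-8 from being activated at death receptors.

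The A20-deleted libraries held 11902432, 12883827 and 9726334 counts and the control libraries 13946211 and 15275199. Levels are given as CPM, counts relative to a common library total after TMM scaling, which evens out differences in library composition. On that scale 3 counts equalled 0.236 to 0.306 CPM in the A20-deleted libraries, and 0.213 and 0.192 CPM in the controls. A20 deletion replicates 2 and 3 stood apart from the other libraries, with 4.63% and 3.56% of counts from mitochondrial transcripts against 0.847% in replicate 1, and 1.19% and 0.852% in the controls. Genes with exons longer than the median held 37.8% and 38.5% of the counts in these libraries, against 44.9% in A20 deletion replicate 1, and 47.9% and 46.8% in the controls. The microglial markers P2ry12, Tmem119, Cx3cr1, Sall1, Fcrls, Csf1r and Aif1 were detected in every library, with Fcrls lower and Aif1 higher by the test. Of 8 microglial markers 7 had a log2 fold change below 0. An unadjusted p under 0.05 by edgeR was reached by 7, against 21% of all genes. The 8 markers summed to 37853, 37571 and 34265 CPM in the A20-deleted libraries and to 47660 and 52435 CPM in the controls. Csf1r, the highest of them, was at 14417, 11869 and 11425 CPM in the A20-deleted libraries, against 15849 and 16225 CPM in the controls. Tnfaip3 itself stood at 295, 277 and 348 CPM in the A20-deleted libraries and at 454 and 94.7 CPM in the controls, so the labels could not be checked by it.

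Bcl2a1a, Bcl2a1b and Bcl2a1d are near-identical copies within 1 stretch of mouse chromosome 9, and how reads can be told apart among them bears on every value below. In GRCm38 they lie at 88956900 to 88962419 (plus strand), 89199209 to 89207827 (plus strand) and 88723285 to 88731914 (minus strand) of that chromosome. Each has 2 exons and a coding sequence of 519 bases including the stop codon, 172 codons without it. Between Bcl2a1a and Bcl2a1b 11 coding bases differ (97.9% identity), between Bcl2a1a and Bcl2a1d 7 (98.7%) and between Bcl2a1b and Bcl2a1d 6 (98.8%). The first 90 coding bases hold 6 of the 12 positions at which the copies differ. They are printed here from the GENCODE M21 transcripts, 5′ to 3′, with the differing bases in capitals, because a read must cover such a base to be assigned to 1 copy.
Bcl2a1a, chr9:88957051-88957140, plus strand: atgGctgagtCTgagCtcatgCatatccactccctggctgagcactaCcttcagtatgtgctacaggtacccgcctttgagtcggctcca
Bcl2a1b, chr9:89199360-89199449, plus strand: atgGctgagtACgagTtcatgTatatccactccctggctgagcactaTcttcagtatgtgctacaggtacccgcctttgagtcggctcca
Bcl2a1d, chr9:88731630-88731719, minus strand: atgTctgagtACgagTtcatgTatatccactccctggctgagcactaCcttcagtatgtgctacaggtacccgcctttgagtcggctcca

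Of all stretches of 100 bases in the annotated transcripts, 56.5% were unique to Bcl2a1a, 43.2% to Bcl2a1b and 45.3% to Bcl2a1d, and at 50 bases the shares were 31%, 20.8% and 20.5%. Neither the read length nor the handling of reads that match several places is known. Bcl2a1b also shares 401 exon bases on its own strand with the predicted gene Gm29094, which had 0 counts in every library, and how reads over both genes were assigned is not known. Of the other members, Bcl2 overlaps an antisense transcript over 558 exon bases, and that transcript had 0 counts in every library.

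The 3 promoters resemble each other as well. They are shown from RefSeq (GRCm38.p6) as the 250 bases before each annotated start site, 5′ to 3′ on the gene's strand, because 2 of the copies rose and the other did not pass the test.
Bcl2a1a, chr9:88956670-88956919, plus strand: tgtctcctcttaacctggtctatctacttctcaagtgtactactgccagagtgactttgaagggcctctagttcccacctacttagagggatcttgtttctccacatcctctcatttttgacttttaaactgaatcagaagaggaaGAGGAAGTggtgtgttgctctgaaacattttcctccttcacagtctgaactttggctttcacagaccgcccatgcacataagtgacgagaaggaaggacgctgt
Bcl2a1b, chr9:89199023-89199272, plus strand: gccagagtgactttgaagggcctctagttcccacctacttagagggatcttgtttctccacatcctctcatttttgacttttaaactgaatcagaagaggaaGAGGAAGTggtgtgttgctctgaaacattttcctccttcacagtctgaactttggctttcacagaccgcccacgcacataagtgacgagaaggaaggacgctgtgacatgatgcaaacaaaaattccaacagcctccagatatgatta
Bcl2a1d, chr9:88731851-88732100, minus strand: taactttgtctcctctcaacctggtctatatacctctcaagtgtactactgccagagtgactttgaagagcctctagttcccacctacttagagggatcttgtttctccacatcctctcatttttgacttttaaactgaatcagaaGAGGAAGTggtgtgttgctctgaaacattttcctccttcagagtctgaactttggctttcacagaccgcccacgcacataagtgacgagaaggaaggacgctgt

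Capitals mark GAGGAAGT, a form of the motif of the myeloid factor PU.1, which was looked for after these promoters had been read. It was found 104, 148 and 104 bases before the RefSeq start sites of Bcl2a1a, Bcl2a1b and Bcl2a1d. The GENCODE starts lie 20, 64 and 64 bases further upstream, within the printed stretches, and from them the distances are 84, 84 and 40 bases. The motif was on either strand in 3.2% of all 32851 RefSeq promoter windows, which reach from 250 bases before to 50 after a start site. The longest run of identical bases in these windows was 174 between Bcl2a1a and Bcl2a1b, and 84 between either of them and Bcl2a1d. The kB consensus motif, searched on both strands, was in 2 of the 15 windows of the 10 survival genes, 1 of Xiap and 1 of Bcl2l1, and in 8.46% of all windows. The core of the interferon-stimulated response element was in 1 of the 15, that of Cflar, and in 3.44% of all windows. These are matches of letters, and none of the libraries measured binding.

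In A20-deleted microglia 3 of the 10 survival genes rose: Bcl2a1a 3.21-fold, Bcl2a1d 4.35-fold and Birc3 2.09-fold (edgeR adjusted p under 0.05). Over all 12240 genes tested 2.59% passed, 2.08% higher and 0.507% lower. None was lower by the test, and 4 of the 10 had an unadjusted p under 0.05 by edgeR, against 21% of all genes tested. DESeq2 also called 3 higher and 0 lower, against 744 higher and 366 lower of all 12240 genes. By limma-voom 2 were higher, without Bcl2a1d (adjusted p = 0.0518), against 166 higher of all genes. Mcl1, Bcl2l1 and Cflar had log2 fold changes of -0.02, -0.15 and 0.08. The groups did not overlap in 5 of the 10 members, against 40.2% of all genes tested, so that count alone says little about the members. The median log2 fold change of the 10 was 0.25, against 0.05 over all genes tested.

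**Figure D1:**
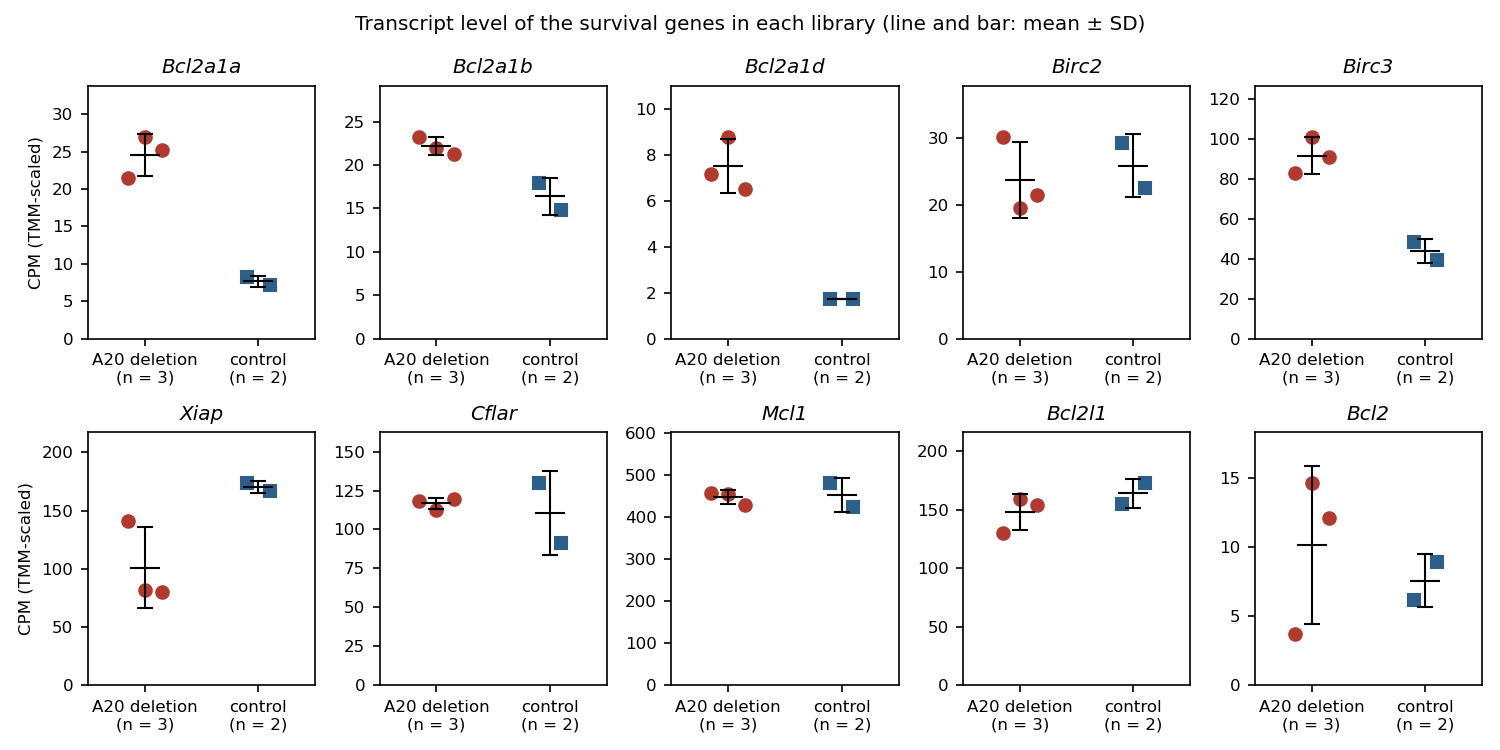
Transcript level of each of the 10 survival genes in CPM on the scaled library total (vertical axis, from 0), with the 3 A20 deletion libraries as circles on the left and the 2 control libraries as squares on the right, and the mean and SD of each group as a line with bars. Bcl2a1a, Bcl2a1b, Bcl2a1d and Birc3 lie higher in every A20 deletion library than in either control, Xiap lies lower, and the groups overlap for Birc2, Cflar, Mcl1, Bcl2l1 and Bcl2.

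Bcl2a1a, which encodes a form of A1, the BCL2 protein known as an NF-kB target in blood cells, was at 21.5, 27 and 25.3 CPM in the A20-deleted libraries and at 8.18 and 7.12 CPM in the controls. Every A20 deletion library lay above both controls, and the smallest gap was far wider than the spread within either group. Its log2 fold change came to 1.68 (SE 0.21, n = 3 and 2, edgeR adjusted p = 0.0134).

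Bcl2a1d, the scarcest of the copies, was at 7.19, 8.8 and 6.52 CPM in the A20-deleted libraries and at 1.71 and 1.73 CPM in the controls, from 64 to 112 counts and from 24 and 27 counts. The groups did not overlap and the controls were nearly equal. Its log2 fold change came to 2.12 (SE 0.34, edgeR adjusted p = 0.0267).

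Bcl2a1b was at 23.3, 22 and 21.3 CPM in the A20-deleted libraries and at 17.9 and 14.9 CPM in the controls. All A20-deleted libraries were above both controls here too, by a narrow margin, and the gene did not pass (log2 fold change 0.44, SE 0.19, 95% interval -0.01 to 0.88, edgeR adjusted p = 0.243).

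Because reads may be split unevenly among the copies, their counts were also summed. The sum was 52, 57.9 and 53.1 CPM in the A20-deleted libraries and 27.8 and 23.7 CPM in the controls, 2.11-fold higher (log2 fold change 1.08, SE 0.17, edgeR adjusted p = 0.0269). The make-up of the sum differed between the groups. Bcl2a1a held 41.3%, 46.7% and 47.6% of the summed counts in the A20-deleted libraries and 29.4% and 30% in the controls, and the exact (Clopper-Pearson) 95% intervals reached down to 37.4% in the A20 deletion group and up to 35% in the controls. Bcl2a1b held 44.8%, 38% and 40.1% in the A20-deleted libraries and 64.5% and 62.7% in the controls. The intervals hold counting error alone, as PCR copies were not told apart from original molecules.

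The log2 ratio of Bcl2a1a to Bcl2a1b, on CPM per kb of exon, was -0.12, 0.29 and 0.24 in the A20-deleted libraries and -1.14 and -1.07 in the controls. The difference of 1.24 gave an exact two-sided permutation p of 0.1 (n = 3 and 2; adjusted p = 0.2 over 8 such measures), the smallest p that 3 against 2 libraries can give. Bcl2a1b was thus the leading copy in both controls, whereas in the A20-deleted libraries the ratio lay on both sides of 0.

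All 3 genes have short transcripts, and short genes held more of the counts in A20 deletion replicates 2 and 3. With each library's trend over exon length removed, the log2 fold changes were 0.98 for Bcl2a1a (adjusted p = 0.0792), 1.47 for Bcl2a1d (adjusted p = 0.0956), -0.23 for Bcl2a1b (adjusted p = 0.659) and 0.39 for the sum (adjusted p = 0.383), by edgeR. With A20 deletion replicates 2 and 3 both omitted, Bcl2a1a was still 1.5 higher on the log2 scale (adjusted p = 0.0202) and the sum 1.02 (adjusted p = 0.0448), and Bcl2a1d was 2.07 (adjusted p = 0.0537), with the 1 remaining library assumed to vary like the controls. Neither Bcl2a1a nor Bcl2a1d passed without control replicate 1 or control replicate 2. These fits leave 1 control library, and calls were lost there over all genes, so the loss is not particular to single genes. Without A20 deletion replicate 3 neither passed (edgeR adjusted p = 0.0578 for Bcl2a1a and 0.0698 for Bcl2a1d). Bcl2a1d also did not pass without A20 deletion replicate 2 (0.0968).

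Neutrophils are rich in Bcl2a1 transcripts, and in sorted cells a change in the number of cells of another type and a change in RNA per microglial cell cannot be told apart. Among 9 neutrophil markers Csf3r, which microglia also express, made up most of the sum and did not pass (adjusted p = 0.105 by edgeR). The other 8 together were at 1.49 to 8.92 CPM in the A20-deleted libraries. In control replicate 1 they were at 17.4 CPM and in control replicate 2 at 0.385 CPM, above and below all A20-deleted libraries. Ly6g had 1 count in control replicate 2 alone and Mpo 6 counts in control replicate 1 alone. Elane had 1 count in A20 deletion replicate 1 alone, so the zeros of these genes do not separate the groups. Of the 5 tested neutrophil markers 3 had a log2 fold change below 0: S100a8 (-0.88), S100a9 (-1.27) and Ltf (-1.41). Csf3r (0.59) and Cxcr2 (2.00) were above 0, and none passed by edgeR. Cxcr2 was at 0.26, 0.943 and 2.24 CPM in the A20-deleted libraries and 0.498 and 0.0641 CPM in the controls. The part of neutrophil RNA in the Bcl2a1 values was not tested.

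Mcl1, which encodes a short-lived BCL2 protein, was at 459, 456 and 430 CPM in the A20-deleted libraries and at 482 and 425 CPM in the controls. Every A20 deletion library lay between the controls. Its log2 fold change came to -0.02 (SE 0.15, 95% interval -0.37 to 0.33, edgeR adjusted p = 0.96).

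Bcl2l1, which encodes BCL-XL, was at 130, 159 and 155 CPM in the A20-deleted libraries and at 155 and 173 CPM in the controls. The groups overlapped, with A20 deletion replicate 1 the lowest of all (log2 fold change -0.15, SE 0.17, 95% interval -0.54 to 0.24, adjusted p = 0.606 by edgeR).

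Bcl2 was scarce, at 3.73, 14.6 and 12.1 CPM in the A20-deleted libraries and at 6.19 and 8.92 CPM in the controls. The A20-deleted libraries lay on both sides of the controls, and replicates 2 and 3, the libraries with the larger mitochondrial share, were the high ones. Its log2 fold change came to 0.43 (SE 0.53, 95% interval -0.83 to 1.68, edgeR adjusted p = 0.65), and -1.01 with replicates 2 and 3 both omitted (adjusted p = 0.327). The astrocyte marker Slc1a2 followed the same split, at 30.2, 112 and 112 CPM in the A20-deleted libraries and 41.7 and 73.6 CPM in the controls. T and NK cells also use Bcl2. Of their 11 markers 8 were at 0 in both controls, Cd3e among them at 0.347, 0.393 and 0.407 CPM in the A20-deleted libraries, and the list summed to 9.01, 5.42 and 4.38 CPM in the A20-deleted libraries and to 0.925 and 1.41 CPM in the controls. Replicate 1, with the highest sum, had the lowest Bcl2. The part of astrocyte and lymphocyte RNA in the Bcl2 values was not tested.

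**Figure D2:**
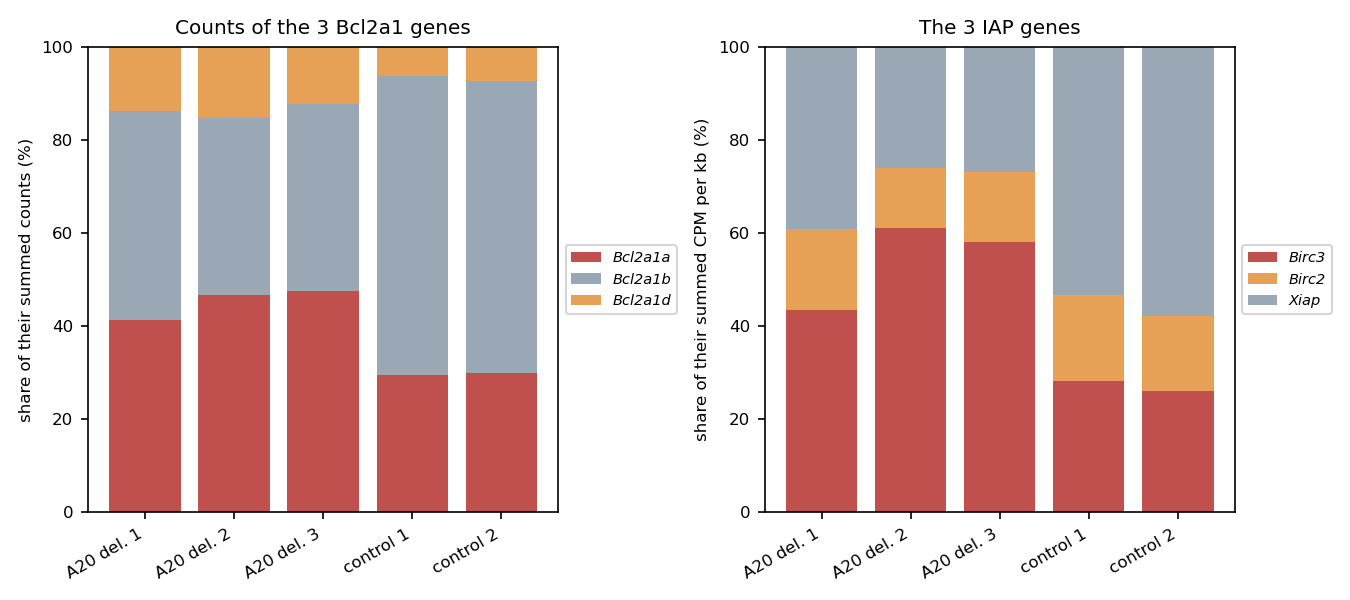
Left, the share (%) of the summed Bcl2a1a, Bcl2a1b and Bcl2a1d counts held by each copy in the 3 A20 deletion and 2 control libraries; right, the share (%) of the summed CPM per kb of exon of Birc2, Birc3 and Xiap held by each. Bcl2a1a and Birc3 take a larger share in each A20 deletion library than in either control, and Bcl2a1b and Xiap a smaller one.

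Among the IAP genes Birc3 rose and its neighbour Birc2 did not pass. The pair lies in tandem on the minus strand of chromosome 9 (GRCm38), Birc2 at 7818227 to 7837064 and Birc3 at 7848699 to 7873186. Birc3, whose product cIAP2 is a known NF-kB target, was at 83.1, 101 and 91 CPM in the A20-deleted libraries and at 48.4 and 39.5 CPM in the controls. The lowest A20 deletion library was well above the higher control. Its log2 fold change came to 1.06 (SE 0.18, 95% interval 0.63 to 1.49, edgeR adjusted p = 0.0343).

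The rise of Birc3 was as large with the length trend removed (1.11, adjusted p = 0.0278). It did not pass without control replicate 1 (adjusted p = 0.198), control replicate 2 (0.384), A20 deletion replicate 2 (0.0965) or A20 deletion replicate 3 (0.115), nor with A20 deletion replicates 2 and 3 both omitted (0.93 on the log2 scale, adjusted p = 0.0562), all by edgeR.

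Birc2 was at 30.2, 19.4 and 21.5 CPM in the A20-deleted libraries and at 29.2 and 22.5 CPM in the controls. The A20-deleted libraries reached both above and below the controls (log2 fold change -0.12, SE 0.25, 95% interval -0.71 to 0.46, adjusted p = 0.785 by edgeR). The log2 ratio of Birc3 to Birc2 per kb was 1.33, 2.26 and 1.95 in the A20-deleted libraries and 0.60 and 0.69 in the controls, a difference of 1.20 (exact two-sided permutation p = 0.2, n = 3 and 2; adjusted p = 0.267).

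Xiap, on chromosome X, was at 141, 81.7 and 79.9 CPM in the A20-deleted libraries and at 174 and 167 CPM in the controls. All A20-deleted libraries were below both controls, but replicates 2 and 3 far more so than replicate 1. The gene did not pass (log2 fold change -0.75, SE 0.27, 95% interval -1.39 to -0.12, edgeR adjusted p = 0.188). Without A20 deletion replicate 1 it passed at -1.10 (edgeR adjusted p = 0.000975). In that fit 3923 of 12120 genes passed, against 317 of 12240 in the main fit, so the call is not particular to Xiap. With replicates 2 and 3 both omitted the log2 fold change of Xiap was -0.26. Xiap has 9469 bases of exon, and the low libraries are those in which long genes held fewer counts. With the length trend removed the value was -0.56 (adjusted p = 0.173). Xist, which marks cells of female mice, had 616, 0 and 0 counts in the A20-deleted libraries and 780 and 0 counts in the controls, so the higher Xiap value in each group came from the library with Xist, by a narrow margin in the controls. Its part in the difference was not tested.

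On CPM per kb, Birc3 held 43.5%, 61.1% and 58% of the summed level of these 3 IAP genes in the A20-deleted libraries and 28.1% and 26% in the controls. Xiap held 39.2%, 26.1% and 27% in the A20-deleted libraries and 53.4% and 57.9% in the controls. The log2 ratio of Birc3 to Xiap was higher in each A20 deletion library than in either control, by 1.87 on average (exact two-sided permutation p = 0.1, n = 3 and 2, the smallest possible; adjusted p = 0.2).

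Cflar, the caspase-8 inhibitor cFLIP, was at 118, 113 and 120 CPM in the A20-deleted libraries and at 130 and 91.5 CPM in the controls. All A20-deleted libraries lay between the controls (log2 fold change 0.08, SE 0.19, 95% interval -0.37 to 0.53, adjusted p = 0.83 by edgeR).

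The order of the members by level can be read on CPM per kb of exon. Mcl1 led in both groups, at 131 ± 4.64 CPM per kb in the A20-deleted libraries and 133 ± 11.8 in the controls (SD, n = 3 and 2), and alone held 47.3% to 49.1% of the summed level of the 10 genes in the A20-deleted libraries and 55.5% and 54.1% in the controls. In the A20-deleted libraries Bcl2l1 (32.3 ± 3.39), Bcl2a1a (30 ± 3.46) and Bcl2a1b (27.2 ± 1.25) came next, and each overlapped its neighbour in that order. Birc3 followed at 18.3 ± 1.84, then Xiap (10.7 ± 3.69), Cflar (9.21 ± 0.29) and Bcl2a1d (8.7 ± 1.36), again overlapping from each to the next, then Birc2 (5.17 ± 1.24) and Bcl2 (1.11 ± 0.623). In the controls Bcl2l1 (35.8 ± 2.71 CPM per kb) stood clear of Bcl2a1b (20.1 ± 2.63) and Xiap (18 ± 0.521), which overlapped. Bcl2a1a (9.34 ± 0.915), Birc3 (8.77 ± 1.25) and Cflar (8.74 ± 2.14) formed an overlapping run, followed by Birc2 (5.64 ± 1.04), Bcl2a1d (1.99 ± 0.0203) and Bcl2 (0.825 ± 0.211). Lengths are those of all annotated exons, which a microglial transcript need not use in full. The Bcl2a1 levels per kb also depend on how reads shared among the copies were handled, which is not known. The places of these copies in the order are therefore uncertain.

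Summed over the 10 genes the level was 1017, 1002 and 961 CPM in the A20-deleted libraries and 1052 and 950 CPM in the controls. The A20-deleted libraries lay between the controls, and the difference of -7.58 CPM gave an exact two-sided permutation p of 1 (n = 3 and 2). This sum was not divided by exon length, so the short Bcl2a1 copies weigh less in it than per kb. Per kb, Mcl1 held a smaller share of the sum in each A20-deleted library, although its own level overlapped between the groups. The summed level per kb was not tested, so the CPM sum alone does not show an unchanged total.

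**Figure D3:**
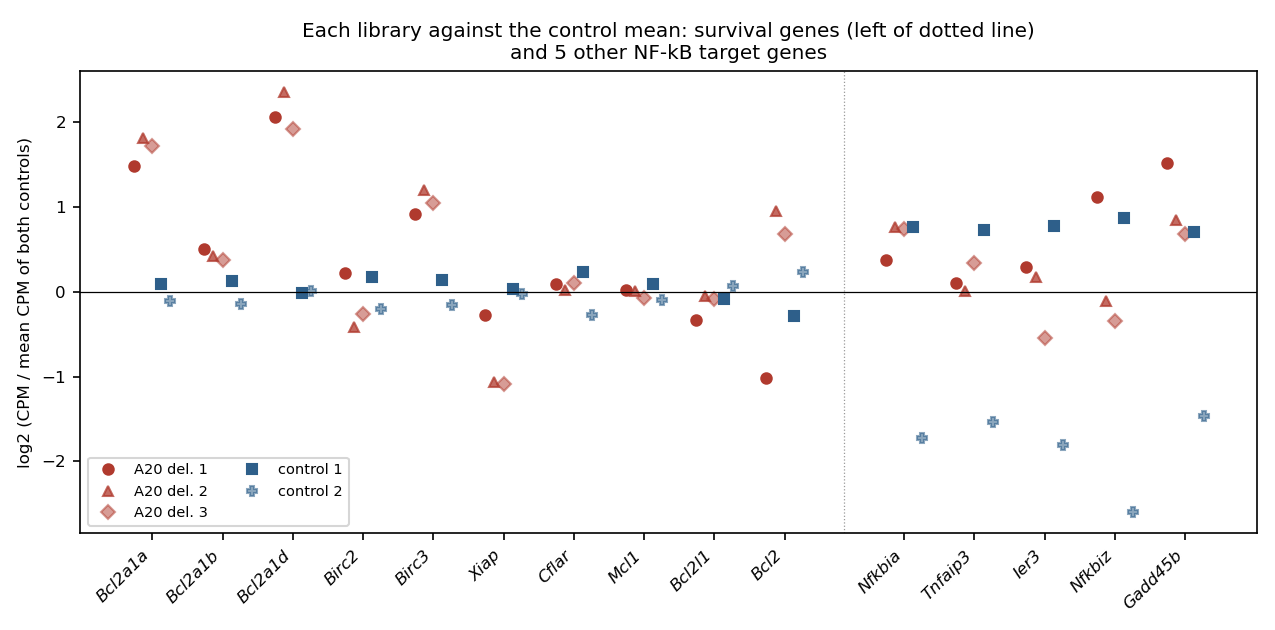
Level of each gene in each library as log2 of its CPM over the mean CPM of both controls, A20 deletion libraries in red and controls in blue, for the 10 survival genes and, right of the dotted line, 5 other NF-kB targets. Among the survival genes the controls lie within 0.53 log2 units of each other, whereas for Nfkbia, Tnfaip3, Ier3, Nfkbiz and Gadd45b control 2 lies far below control 1.

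The controls differed little from each other in the survival genes and much in some other NF-kB targets. Control replicate 1 over replicate 2 ranged from -0.53 (Bcl2) to 0.50 (Cflar) on the log2 scale across the 10 members, with a median size of 0.23, against a median size of 0.24 over all genes tested. Nfkbia, the inhibitor that NF-kB induces first, was 5.61 times as high in control replicate 1 as in replicate 2. The factor was 4.79 for Tnfaip3, 6.02 for the early response gene Ier3, 11.1 for the IkB protein gene Nfkbiz and 4.5 for Gadd45b, a stress gene. These 5 were chosen after their values were seen, as the tested genes of the apoptosis and NF-kB lists with over 2 log2 units between the controls and counts in both. The 12 other genes of the NF-kB lists with counts in both controls differed by 0.053 to 0.48 log2 units. Over all genes tested 2.16% differed by more than 2 log2 units between the controls (with 0.1 CPM added).

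In the A20-deleted libraries Nfkbia was at 784, 1030 and 1009 CPM, against 1026 and 183 CPM in the controls, and did not pass (adjusted p = 0.549 by edgeR).

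**Figure D4:**
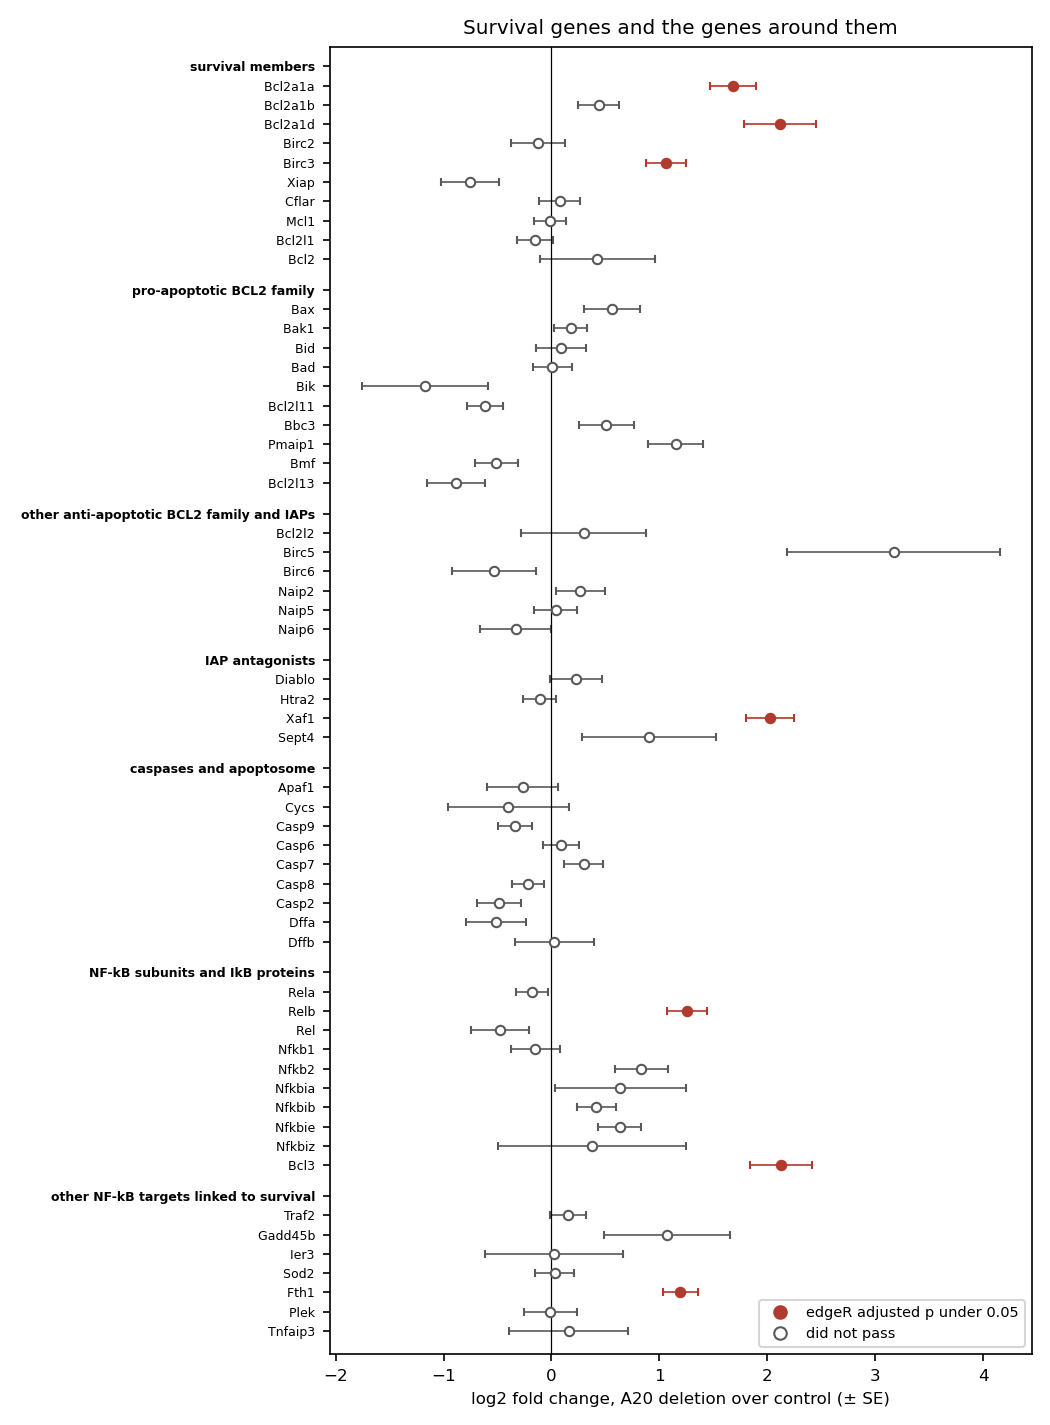
Log2 fold change, A20 deletion over control, with its standard error for the 10 survival genes and the genes of 6 other lists, filled where the edgeR adjusted p was under 0.05 (not every gene of each list is drawn; Traf1 and Naip1, with 1 and 0 control counts, are left out). The filled genes are Bcl2a1a, Bcl2a1d, Birc3, Xaf1, Relb, Bcl3 and Fth1, all to the right of 0.

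Around the survival genes, few others of the apoptosis machinery passed. Of 10 tested genes of the pro-apoptotic BCL2 family none rose and none fell by edgeR, with a median log2 fold change of 0.05. An unadjusted p under 0.05 by edgeR was reached by 4, against 21% of all genes tested. DESeq2 called 1 higher and 1 lower, against 744 higher and 366 lower of all 12240 genes. Pmaip1, which encodes the MCL-1 and A1 antagonist NOXA, was at 27.1, 29.7 and 25 CPM in the A20-deleted libraries and 15.2 and 9.43 CPM in the controls (log2 fold change 1.15, SE 0.25, edgeR adjusted p = 0.0705). Bcl2l11, which encodes BIM, was at 35.9, 40.3 and 38.2 CPM in the A20-deleted libraries and 53.1 and 63.9 CPM in the controls (log2 fold change -0.62, SE 0.17, edgeR adjusted p = 0.118). These were the family's 2 smallest p, and the groups did not overlap in either gene.

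Of 10 caspase and apoptosome genes none rose and none fell by edgeR (2 had an unadjusted p under 0.05, a share near the 21% of all genes) or by DESeq2, with a median log2 fold change of -0.30. Casp2 averaged 20.3 ± 2.82 CPM in the A20-deleted libraries and 28.3 ± 3.9 CPM in the controls (SD, n = 3 and 2; edgeR adjusted p = 0.232).

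Of 4 IAP antagonists 1 rose, against 2.08% of all genes tested. Xaf1, an interferon-induced gene whose product binds XIAP, was at 40.1, 32 and 30.8 CPM in the A20-deleted libraries and at 9.18 and 7.63 CPM in the controls, 4.08-fold higher (log2 fold change 2.03, SE 0.22, edgeR adjusted p = 0.00792). Its groups were far apart, but it did not pass without control replicate 1 or control replicate 2. These fits leave 1 control library, and a lost call there is not particular to Xaf1. Sept4, with the next smallest p, was below 4 CPM in every library. Of 7 other tested anti-apoptotic BCL2 and IAP genes none rose and none fell by edgeR. An unadjusted p under 0.05 by edgeR was reached by 2, against 21% of all genes. DESeq2 called 2 higher, against 744 of all 12240 genes. The neuronal apoptosis inhibitor gene Naip1 had 21, 13 and 3 counts in the A20-deleted libraries and 0 in both controls (edgeR adjusted p = 0.12). The mitotic IAP gene Birc5 had 13, 14 and 43 counts in the A20-deleted libraries and 2 and 5 in the controls (edgeR adjusted p = 0.153).

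Among the NF-kB proteins themselves 2 of 10 genes rose and none fell, with a median log2 fold change of 0.52. Over all genes tested 2.08% were higher by edgeR, and the median was 0.05. An unadjusted p under 0.05 by edgeR was reached by 4 of the 10, against 21% of all genes. Relb, a subunit of the non-canonical pathway that cIAP1 and cIAP2 hold back, was at 72.5, 72.9 and 92.4 CPM in the A20-deleted libraries and at 32.4 and 33.9 CPM in the controls (2.39-fold higher, log2 fold change 1.26, SE 0.19, edgeR adjusted p = 0.0215). Bcl3, a nuclear IkB protein, was at 18.7, 13.2 and 18.5 CPM in the A20-deleted libraries and at 4.48 and 3.21 CPM in the controls (4.37-fold higher, log2 fold change 2.13, SE 0.29, edgeR adjusted p = 0.0162). Rela, the main activating subunit, did not pass (log2 fold change -0.18, edgeR adjusted p = 0.49), and is named here after its value was seen. Neither Relb nor Bcl3 passed without either control (adjusted p from 0.115 to 0.276) or without A20 deletion replicate 3 (0.0698 and 0.0638).

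Of 8 further NF-kB targets linked to survival 2 rose and none fell, with a median log2 fold change of 0.16. Over all genes tested 2.08% were higher by edgeR. An unadjusted p under 0.05 by edgeR was reached by 2 of the 8, a share near the 21% of all genes. Traf1, an adaptor found in TRAF2 and cIAP complexes, had 94 counts in the A20-deleted libraries together and 1 count in the controls, a ratio of 81.8 per scaled library total (exact 95% interval 14.3 to 3264, counting error only; edgeR adjusted p = 0.0255). Its level was 2.77, 2.67 and 2.85 CPM in the A20-deleted libraries. Traf1 met the filter on low counts through these libraries alone, with 32, 34 and 28 counts against 0 and 1 in the controls. With at least 5 CPM in 2 libraries required Traf1 was not tested, and 1 of 7 genes of this list rose. Fth1, the iron-storing ferritin heavy chain, was 2.29-fold higher, at 2509, 2327 and 2981 CPM in the A20-deleted libraries and 1108 and 1170 CPM in the controls (log2 fold change 1.19, SE 0.16, edgeR adjusted p = 0.0164), although its processed copies in the genome can share reads. Without control replicate 1, control replicate 2 or A20 deletion replicate 3 neither gene passed, and Traf1 also missed the threshold without A20 deletion replicate 2 (adjusted p = 0.0503).

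Markers of other cells moved with some of these groups. Plac8, a monocyte marker, was at 30.7, 16.7 and 27.1 CPM in the A20-deleted libraries and at 2.99 and 2.63 CPM in the controls and was the only 1 of 4 tested monocyte markers to pass. The 5 other monocyte markers summed to 6.72 to 11.7 CPM in the A20-deleted libraries and to 8.28 and 13 CPM in the controls. Most of this was Ccr2, at 8.14, 5.19 and 5.5 CPM in the A20-deleted libraries and 11.5 and 8.21 CPM in the controls. Ly6c2 went the other way, with 12, 7 and 12 counts in the A20-deleted libraries and 1 and 0 in the controls (edgeR adjusted p = 0.122). Of the T and NK markers, Cd4 was the highest, at 3.99, 2.67 and 2.75 CPM in the A20-deleted libraries and 0.569 and 1.03 CPM in the controls. Among 5 astrocyte markers Aldh1l1 passed, with a log2 fold change of 2.58 (edgeR adjusted p = 0.0343). It was at 8.06, 9.67 and 17.9 CPM in the A20-deleted libraries and 1.64 and 2.31 CPM in the controls. All 5 tested astrocyte, 5 oligodendrocyte lineage and 5 neuronal markers had a log2 fold change above 0. The groups did not overlap in 2, 3 and 1 of them, and only Aldh1l1 passed. The oligodendrocyte lineage summed to 120 to 215 CPM in the A20-deleted libraries and to 94.7 and 113 CPM in the controls, most of it Mbp. Without Cd79b, which microglia express, B cell markers summed to at most 0.393 CPM in the A20-deleted libraries and to 0 in the controls. Border-associated macrophage markers, led by Mrc1, summed to 77.9 to 91.5 CPM in the A20-deleted libraries and to 54.9 and 118 CPM in the controls. Neuronal markers, led by Snap25, summed to 9.18 to 13.1 CPM in the A20-deleted libraries and to 2.82 and 7.26 CPM in the controls, and endothelial markers, led by Pecam1, to 43.5 to 64.5 CPM in the A20-deleted libraries and to 52.8 and 59.7 CPM in the controls. Pecam1 itself was at 26.3, 35.2 and 28 CPM in the A20-deleted libraries and 50.6 and 53.1 CPM in the controls. Its log2 fold change was -0.80 (edgeR adjusted p = 0.0797). The other endothelial markers, Cldn5, Cdh5, Flt1 and Ly6c1, went the other way. They summed to 10.8 to 38.3 CPM in the A20-deleted libraries and to 2.21 and 6.54 CPM in the controls. None of them passed the threshold (edgeR adjusted p from 0.178 to 0.232). Both Pecam1 and each of these markers had fully separate groups, which also held for 40.2% of all genes tested. The part of these cells in the rise of Bcl2a1a, Bcl2a1d and Birc3 was not tested.

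**Figure D5:**
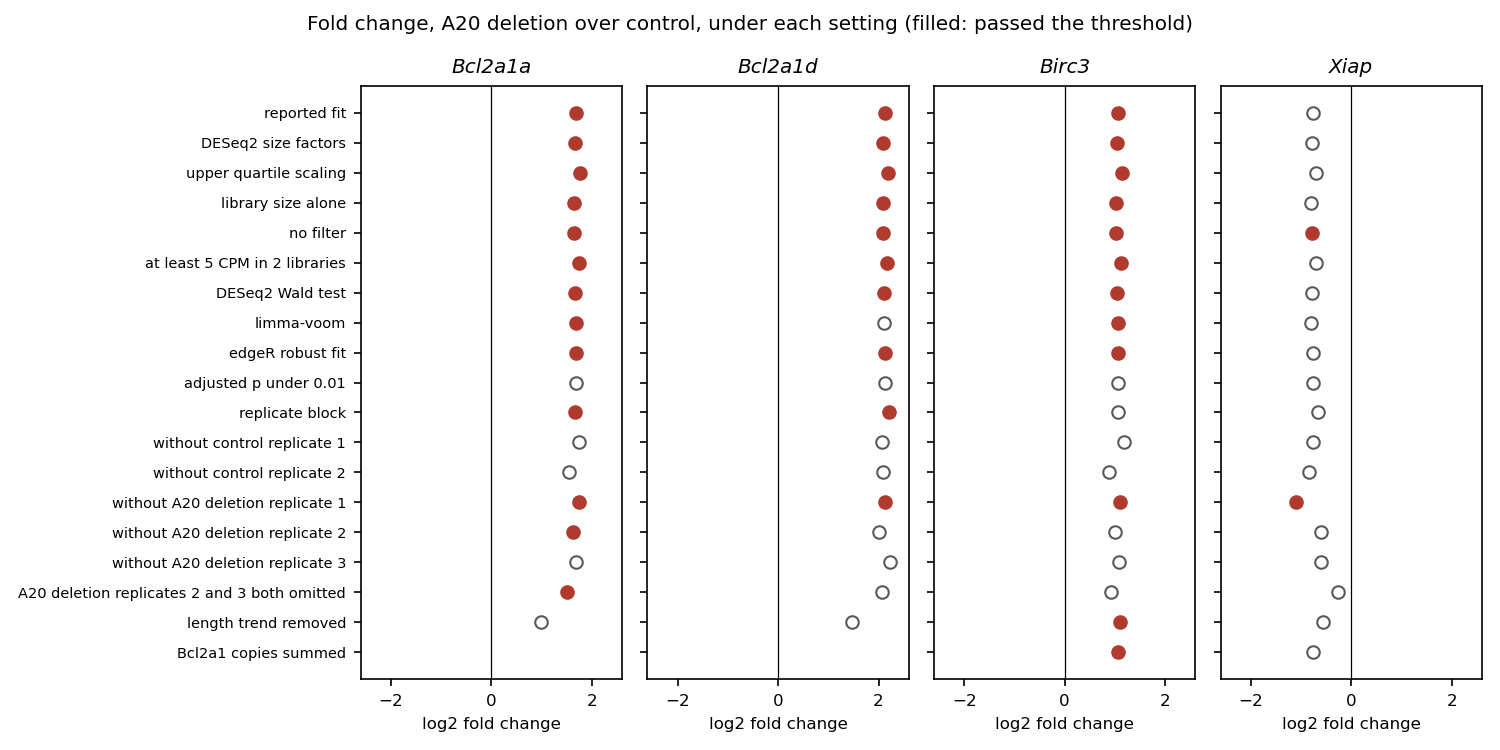
Log2 fold change, A20 deletion over control, of Bcl2a1a, Bcl2a1d, Birc3 and Xiap (horizontal axis) under the reported fit and each other setting (rows), filled where the gene passed the threshold. Every point for Bcl2a1a, Bcl2a1d and Birc3 is above 0 and every point for Xiap below it, while none of the first 3 genes passes without either control.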

How the data were processed

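Bulk RNA sequencing of eYFP-sorted brain microglia gave 1 table of counts per Ensembl gene for 5 libraries. The deposited values are raw counts, whole numbers that are not normalized. The authors used STAR 2.4.0j, featureCounts, DESeq2 1.22.1 and GRCm38, per the submitters' processing notes. How multi-mapping reads were handled, the strand setting and the annotation release are not given, so near-identical and overlapping genes are uncertain. Per the labels' protocols, 10 ng of RNA with an integrity number of at least 7 went into each library. Symbols and exon lengths were taken from GENCODE M21 (GRCm38), which matched 40340 of 41388 identifiers.

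The filter filterByExpr (at least 10 counts, and 15 in total) left 12240 genes, which were scaled by TMM and compared in edgeR 4.0.16 (R 4.3.3) by the quasi-likelihood test, two-sided and without covariates, with Benjamini-Hochberg adjustment over all genes tested and a threshold of 0.05. The SE is the log2 fold change divided by the square root of F, and 95% intervals use the test's degrees of freedom. Levels are CPM on the scaled total, and CPM per kb divides by exon length. Every pair of libraries differed by more than sampling noise (chi-square per degree of freedom 15.5 to 144). The procedure was also run on simulated data, where a check was set only on the direction of the largest planted changes. The simulation left out the differences in mitochondrial share and gene length between libraries, so it does not bear on single calls. The text names all 10 members, called members of 6 other lists and the 2 smallest p of each, the highest gene of each marker list and Tnfaip3; any other gene named was chosen after its values were seen. Members and lists were chosen with earlier results of these data known. Alternatives were other scalings, filters and tests (DESeq2 1.42.0, limma 3.58.1), a replicate block, left-out libraries, a length-trend correction (lowess, span 0.3, as an offset) and summed Bcl2a1 copies. Some genes of the lists are not reported here.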

Additional observations from a re-analysis of the deposited data

How the results depend on the processing

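The threshold was met by 317 genes, against 1701 with no filter, 1110 with the DESeq2 Wald test, 211 with limma-voom and 58 at an adjusted p under 0.01. Leaving out 1 library gave 0 (without control replicate 2) to 3923 (without A20 deletion replicate 1). With no filter the median over all genes moved to 0.17 on the log2 scale. Of the survival genes 3 were higher, against 0 at an adjusted p under 0.01, 1 with A20 deletion replicates 2 and 3 both omitted, 1 with the length trend removed, 2 with limma-voom, and 0 to 3 without 1 library. None was lower, against 1 (Xiap) with no filter and 0 to 1 without 1 library. The Bcl2a1 sum (1.08) lost its call at an adjusted p under 0.01 (1.08), under the replicate block (1.09, adjusted p = 0.0593 by edgeR) and with the length trend removed (0.39), and was 0.91 to 1.15 without 1 library, losing its call without control replicate 1 (adjusted p = 0.191), control replicate 2 (0.363), A20 deletion replicate 2 (0.0829) or A20 deletion replicate 3 (0.107), by edgeR. Replicate numbers shared by both groups (1 and 2) are not said to pair animals. Under the block 260 genes were called, 2 survival genes among them, and Birc3 lost its call (1.07, edgeR adjusted p = 0.0767).

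In the other lists, no filter gave 1 higher and 2 lower pro-apoptotic genes, 2 higher anti-apoptotic genes and 1 lower caspase gene, and DESeq2 gave 1 higher and 1 lower pro-apoptotic and 2 higher anti-apoptotic genes. The further NF-kB targets that were higher numbered 1 with at least 5 CPM in 2 libraries, with limma-voom, under the block and with replicates 2 and 3 both omitted. At an adjusted p under 0.01 they numbered 0, as did the NF-kB proteins. Without 1 library the ranges were 0 to 2 higher and 0 to 3 lower pro-apoptotic genes, 0 to 1 higher and 0 to 2 lower anti-apoptotic genes, 0 to 1 higher IAP antagonists, 0 to 3 lower caspase genes, 0 to 5 higher and 0 to 2 lower NF-kB proteins, and 0 to 2 higher further targets.

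The log2 fold change turned for Bcl2a1b with the length trend removed (-0.23), and with replicates 2 and 3 both omitted for Bcl2 (-1.01), Birc2 (0.23) and Mcl1 (0.027). For Mcl1 it also turned with upper quartile scaling (0.048), at least 5 CPM in 2 libraries (0.035) and the replicate block (0.016). Without 1 library Birc2 ranged from -0.36 to 0.034, Cflar from -0.21 to 0.31, Mcl1 from -0.16 to 0.034, Tnfaip3 from -0.62 to 1.65 and Nfkbia from -0.18 to 2.32. Cflar, Tnfaip3 and Nfkbia turned without control replicate 2, Birc2 without control replicate 1 or A20 deletion replicate 2, and Mcl1 without control replicate 1 or A20 deletion replicate 3. The causes were not tested. Precision is limited by the number of libraries, 3 and 2.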
